A study of Mus musculus with 18 samples.

Results

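Neutrophil granule and alarmin genes were followed through maps of 2 histone marks in sorted mouse blood precursor cells. The 10 members were chosen by name among 21938 protein-coding genes of GENCODE vM21 on mm10, with no measured value in the rule. Earlier results of these data were known at the time of the choice. The members were 4 primary granule genes (Mpo, Elane, Prtn3 and Ctsg), 4 secondary granule genes (Camp, Ltf, Ngp and Mmp8) and 2 cytosolic alarmin genes (S100a8 and S100a9). The series held 8 ChIP-seq libraries from bone marrow of adult C57BL6 mice, for H3K4me3 and H3K27ac, with 2 libraries per mark in each of 2 cell types, and 10 input libraries that were not analysed here. Erythroblasts (ERY) were sorted for Ter119 and CD44 at low forward scatter, and immature megakaryocytes (iMK) for CD41 and CD61 without Ter119, Sca1 or cKit. Both sorts also left out cells with CD4, CD8, IL7Ra, CD45R or either of the granulocyte surface proteins CD11b and Ly6g. The labels name no treatment or altered gene in any group and number no replicates, so the numbers 1 and 2 follow the order of submission and pair nothing. By the study's methods, replicates came from separate groups of mice or from separately sorted portions of the same mice, so the spread between them may be partly technical.

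Developing neutrophils fill their granules in waves. Primary (azurophilic) granules are loaded first, in promyelocytes, with myeloperoxidase and serine proteases. Secondary (specific) granules follow in later precursors with antimicrobial proteins such as lactoferrin and cathelicidin, whose genes depend on C/EBP epsilon, and S100a8 and S100a9 encode a calcium-binding pair that fills the neutrophil cytosol and acts as an alarm signal when released. Of the marks, H3K4me3 sits chiefly at promoters, whereas H3K27ac marks promoters and enhancers that are active.

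The libraries were first set against their labels. The 9 erythroblast marker genes reported here were all higher in ERY for H3K27ac by limma, among them Hba-a1 and Klf1. Of 10 megakaryocyte markers, 4 were higher in ERY and 1, Itgb3 (the gene of CD61), in iMK, whereas Pf4 and Gp6 had no H3K27ac peak in any library. Among all 14467 genes tested for H3K27ac, 3189 were higher in ERY and 2490 in iMK. Itga2b, the gene of CD41, had no H3K27ac peak in either iMK library. The term used below is therefore the libraries labelled iMK. The peak lists do not hold read depth. H3K27ac lists numbered 21768 to 25750 peaks, and H3K4me3 lists 6275 to 13222, the longest being replicate 2 labelled iMK, which covered 33.8 Mb against 9.02 to 16.0 Mb in the other 3. H3K4me3 values are given below with and without that library.

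Peaks were counted over a locus, which is the gene body extended by 10 kb at either end, and the value for a gene is the percent of the locus inside peaks. H3K27ac peaks lay in all 10 loci in replicate 2 labelled iMK, in 9 in replicate 1 labelled iMK, in 1 in ERY replicate 1 and in 0 in ERY replicate 2. Over all protein-coding genes, 50.6% to 60.4% of loci held an H3K27ac peak in each of these libraries. For H3K4me3, 9 and 2 member loci held a peak in replicates 2 and 1 labelled iMK, and 0 in either ERY library. Over all protein-coding genes the share was 60.1% and 43.6% in replicates 2 and 1 labelled iMK and 46.5% and 35.997% in ERY replicates 1 and 2. In these sorted populations, more cells carrying a mark and more mark per cell cannot be told apart.

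**Figure D1:**
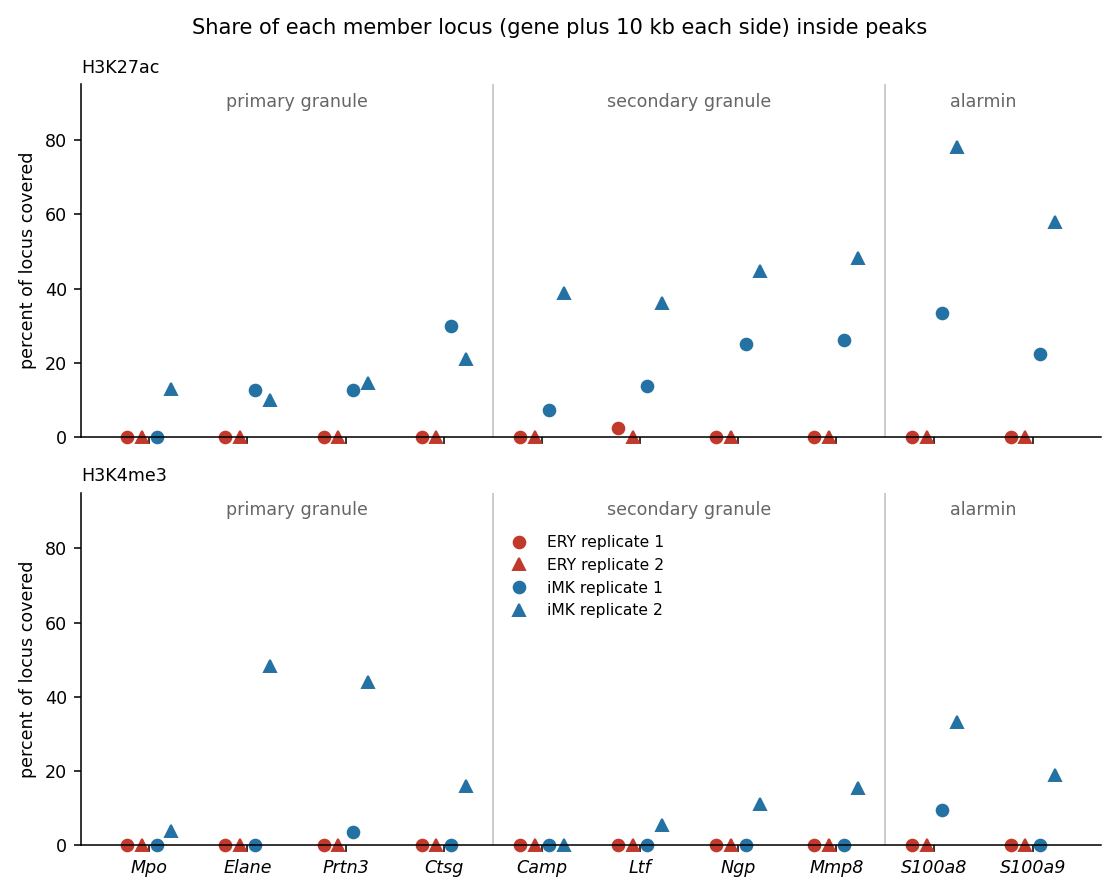
Percent of each locus inside peaks (vertical axes) for the 10 members, H3K27ac above and H3K4me3 below. Red points are ERY libraries and blue points those labelled iMK, with a circle for replicate 1 and a triangle for replicate 2. ERY points lie at 0 apart from Ltf in replicate 1 (2.30%), and the highest point is S100a8 H3K27ac in replicate 2 labelled iMK (78.2%).

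Promoter sequence is shown because, in the window below, each of the secondary granule genes held 1 motif that no primary granule gene had. The window was the 250 bases before the first annotated start in GENCODE vM21, on mm10, and was read 5′ to 3′ along the gene from the RefSeq copy of that assembly. Both strands were searched for TTGCNNAA (a core of C/EBP sites), GAGGAA (PU.1), TGTGGT (RUNX) and GATAA (GATA). Capitals mark any of these 4 motifs on either strand. In Mpo a GATAA adjoined a GAGGAA without sharing a base. The 4 secondary granule genes come first, then 3 primary granule genes and S100a9.
Camp (chr9:109849618-109849867, minus strand): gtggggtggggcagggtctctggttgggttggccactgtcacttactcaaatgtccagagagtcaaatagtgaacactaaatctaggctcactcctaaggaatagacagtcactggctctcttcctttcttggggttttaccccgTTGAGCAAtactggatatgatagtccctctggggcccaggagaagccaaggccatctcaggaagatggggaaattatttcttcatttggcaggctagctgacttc
Ltf (chr9:111019021-111019270, plus strand): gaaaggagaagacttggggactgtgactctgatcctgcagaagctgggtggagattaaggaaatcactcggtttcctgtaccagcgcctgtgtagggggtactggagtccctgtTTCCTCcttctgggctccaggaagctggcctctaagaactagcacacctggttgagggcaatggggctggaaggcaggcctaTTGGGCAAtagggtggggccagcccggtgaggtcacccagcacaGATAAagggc
Ngp (chr9:110419497-110419746, plus strand): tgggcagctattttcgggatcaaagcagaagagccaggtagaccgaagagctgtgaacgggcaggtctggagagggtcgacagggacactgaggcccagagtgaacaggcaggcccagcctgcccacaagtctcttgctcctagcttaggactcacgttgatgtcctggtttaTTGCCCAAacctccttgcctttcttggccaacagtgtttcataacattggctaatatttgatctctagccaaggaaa
Mmp8 (chr9:7558206-7558455, plus strand): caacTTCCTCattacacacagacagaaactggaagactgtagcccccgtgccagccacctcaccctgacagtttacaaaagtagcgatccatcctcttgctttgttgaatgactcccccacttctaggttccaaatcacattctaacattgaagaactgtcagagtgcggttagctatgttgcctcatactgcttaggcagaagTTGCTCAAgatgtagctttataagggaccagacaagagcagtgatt
Mpo (chr11:87793331-87793580, plus strand): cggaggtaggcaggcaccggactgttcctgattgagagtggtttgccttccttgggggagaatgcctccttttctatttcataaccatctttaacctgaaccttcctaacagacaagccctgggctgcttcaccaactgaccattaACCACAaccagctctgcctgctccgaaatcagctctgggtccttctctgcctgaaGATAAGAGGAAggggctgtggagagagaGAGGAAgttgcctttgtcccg
Elane (chr10:79885997-79886246, plus strand): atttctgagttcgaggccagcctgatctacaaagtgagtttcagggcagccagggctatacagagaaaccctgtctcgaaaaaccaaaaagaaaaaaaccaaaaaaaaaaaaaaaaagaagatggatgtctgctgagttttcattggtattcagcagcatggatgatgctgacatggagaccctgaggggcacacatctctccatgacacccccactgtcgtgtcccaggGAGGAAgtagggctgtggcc
Ctsg (chr14:56102575-56102824, minus strand): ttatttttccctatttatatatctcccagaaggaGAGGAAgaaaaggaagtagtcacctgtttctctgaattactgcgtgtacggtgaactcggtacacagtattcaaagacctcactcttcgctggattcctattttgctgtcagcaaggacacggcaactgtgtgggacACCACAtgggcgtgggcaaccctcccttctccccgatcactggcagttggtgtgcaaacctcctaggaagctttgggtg
S100a9 (chr3:90695722-90695971, minus strand): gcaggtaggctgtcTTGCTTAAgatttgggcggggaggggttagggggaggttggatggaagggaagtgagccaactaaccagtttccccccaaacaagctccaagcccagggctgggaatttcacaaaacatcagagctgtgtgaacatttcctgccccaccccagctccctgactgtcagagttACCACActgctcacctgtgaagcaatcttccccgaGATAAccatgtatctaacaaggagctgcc

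TTGCNNAA was in 4 of 4 secondary granule promoters, in 0 of 4 primary ones and in 1 of 2 alarmin promoters (S100a9), against 9.23% of 21931 promoters of the same length. It began 105 bases before the start in Camp, 77 in Ngp, 54 in Ltf, 46 in Mmp8 and 236 in S100a9. The PU.1 letters were in 3 of 4 primary, 2 of 4 secondary and 1 of 2 alarmin promoters (22.9% of all). In the 3 primary genes, GAGGAA began 20 bases before the start in Elane, 216 in Ctsg, and 44 and 21 in Mpo. The RUNX letters were in Mpo, Ctsg and S100a9 (12.98% of all) and the GATA letters in Mpo, Ltf and S100a9 (21.3%). Prtn3, whose window lies inside the neighbouring gene Plppr3 and is 74.8% G and C, held none of the 4. Only 1 start per gene was searched, and several members have more, with 6 each at Mpo and Prtn3 and 10 at Ltf. In S100a8, 1 PU.1 match was found. The matches describe letters only, and the motifs were chosen with the marks at these genes known.

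The same windows differed in their marks. All 10 were free of peaks of both marks in ERY. H3K27ac peaks covered 100% of the window in both libraries labelled iMK at Mmp8 and Prtn3. They covered 100% in replicate 2 alone at Camp, Ngp, S100a8 and S100a9, and in replicate 1 alone at Ltf and Ctsg. At Mpo 72.0% was covered in replicate 2 and at Elane 1.6% in replicate 1. At Ngp and S100a8 in replicate 1, a peak began 254 and 23 bases after the start. At Ltf and Ctsg in replicate 2, one began 130 and 174 bases after it. H3K4me3 peaks covered 100% of the window in replicate 2 labelled iMK at Elane, Prtn3, Ctsg, Mmp8, S100a8 and S100a9. In replicate 1 they did so at Prtn3 alone, and the remaining windows had 0%.

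The primary granule genes carried H3K27ac in both libraries labelled iMK at 3 of 4 loci and none in ERY. Prtn3, which encodes proteinase 3 (ENSMUSG00000057729.12, chromosome 10, 79874476 to 79883174, plus strand), had 12.5% and 14.6% of its locus covered in replicates 1 and 2 labelled iMK and 0% in both ERY libraries. Elane, which encodes neutrophil elastase and starts 3073 bp beyond the end of Prtn3 (ENSMUSG00000020125.7, chromosome 10, 79886247 to 79888215), had 12.7% and 10.01% in the same order and 0% in ERY. At both genes the 2 cell types did not overlap. Ctsg, which encodes cathepsin G (ENSMUSG00000040314.2, chromosome 14, 56099881 to 56102574, minus strand), had 29.96% and 21.2% against 0% in ERY. Mpo, which encodes myeloperoxidase (ENSMUSG00000009350.13, chromosome 11, 87793581 to 87804413), had 0% and 12.97% in replicates 1 and 2 labelled iMK and 0% in ERY. Mpo was thus the only member whose H3K27ac values overlapped between the cell types.

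The differences of Prtn3, Elane and Ctsg passed limma's test. Both ERY values were 0% at each of them, so the gene's own spread came from the libraries labelled iMK alone. The test takes both cell types to vary alike. ERY minus iMK was -13.6 percentage points for Prtn3 (SE 1.07, adjusted p = 0.00824), -11.4 for Elane (SE 1.22, adjusted p = 0.0125) and -25.6 for Ctsg (SE 3.65, adjusted p = 0.0204). For Mpo it was -6.49 (SE 5.15, adjusted p = 0.377).

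Elane and Prtn3 share chromatin, so their values are not independent. In replicate 1 labelled iMK, H3K27ac peaks of 0.8 kb inside Prtn3 and of 2 kb ending 247 bases before the Elane start counted for both genes. In replicate 2 labelled iMK, a 2.2 kb peak inside Prtn3 (fold over control 3.42 by the authors) counted for both, and no H3K27ac peak reached the Elane start. At the other end, the first start of Prtn3 overlaps the divergent gene Plppr3, and the H3K27ac peaks there, of 0.8 and 2 kb, lie over the promoters of both genes. Plppr3 itself had H3K27ac over 14.6% and 14.1% of its locus in ERY, all of it outside the Prtn3 locus. Ctsg has no protein-coding neighbour within 10 kb. Its peaks formed 2 blocks in each library labelled iMK, one over the gene body (4.2 and 3 kb) and one upstream, ending 1627 and 2627 bases before the start.

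The secondary granule genes carried H3K27ac in both libraries labelled iMK at all 4 loci, with more of the locus covered in replicate 2. Ngp, which encodes neutrophilic granule protein (ENSMUSG00000032484.8, chromosome 9, 110419747 to 110423012, plus strand), had 24.9% and 44.7% covered in replicates 1 and 2 labelled iMK and 0% in ERY. Mmp8, which encodes neutrophil collagenase (ENSMUSG00000005800.3, chromosome 9, 7558456 to 7568485, plus strand), had 26.3% and 48.2% against 0%. Both genes separated the cell types without overlap. Ltf, which encodes lactoferrin (ENSMUSG00000032496.7, chromosome 9, 111019271 to 111042767, plus strand), had 13.8% and 36.2% in the libraries labelled iMK, and 2.30% and 0% in ERY replicates 1 and 2. Camp, which encodes cathelicidin (ENSMUSG00000038357.10, chromosome 9, 109847379 to 109849617, minus strand), had 7.19% and 38.7% against 0%. The replicates labelled iMK lay furthest apart at Camp among the 4, by a ratio of 5.39, but both stood above ERY at each of these genes.

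Of these genes Ngp passed the test, by -34.8 percentage points (SE 7.95, adjusted p = 0.0497), just under the threshold of 0.05. On simulated data the test made more false calls than the nominal rate, so this call needs caution. The difference was -37.2 for Mmp8 (SE 8.82, adjusted p = 0.0536), -23.8 for Ltf (SE 8.98, adjusted p = 0.129) and -23.0 for Camp (SE 12.6, adjusted p = 0.238), and none of the 3 passed. These estimates were close to or larger than that of Ctsg. The spread between the libraries labelled iMK was wider over the 4 secondary genes, with an SD of 14.0 to 22.3 points (n = 2) against 1.48 to 9.17 over the 4 primary genes.

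The peaks of these genes spread well beyond the promoter. At Ngp, replicate 2 labelled iMK held 1 peak of 10.4 kb, from upstream of the start through the whole gene (chromosome 9, 110413801 to 110424200, fold 6.24, q = 7.63e-260). It was the widest H3K27ac peak at any member. Replicate 1 held 2 separate peaks of 2.4 and 3.4 kb within the same span, and the 250 bases printed above lay between them. Mmp8 had a promoter peak in both libraries, of 2.2 kb and fold 7.6 in replicate 1 and of 3.8 kb and fold 10.4 in replicate 2. A further peak with the same edges in both, 2.6 kb long, lay 18.1 kb after the start inside the neighbour Mmp27, another matrix metalloproteinase gene. Mmp27 itself had 20.99% and 37.4% of its locus covered and 0% in ERY, partly through the same peaks.

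Ltf held 4 and 6 separate peaks in replicates 1 and 2 labelled iMK. The strongest, 1 kb long with fold 10.8 in replicate 1, lay 17.5 kb after the start within the gene, and replicate 2 called a peak of fold 3.68 overlapping it. The ERY peak, 1 kb long with fold 3.65, lay 11.5 kb after the first start, where no peak of the libraries labelled iMK was called. Folds are not level between lists, as the H3K27ac list of ERY replicate 1 had a median fold of 3.06. At Camp, replicate 1 labelled iMK had a peak only at the end of the neighbour Nme6, 5.62 kb after the Camp start and past its end (fold 1.91). In replicate 2, 5 peaks lay in the locus, and the one over the start was 3.2 kb long with fold 4.54. The 7.19% of replicate 1 therefore came from a peak that did not touch Camp.

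**Figure D2:**
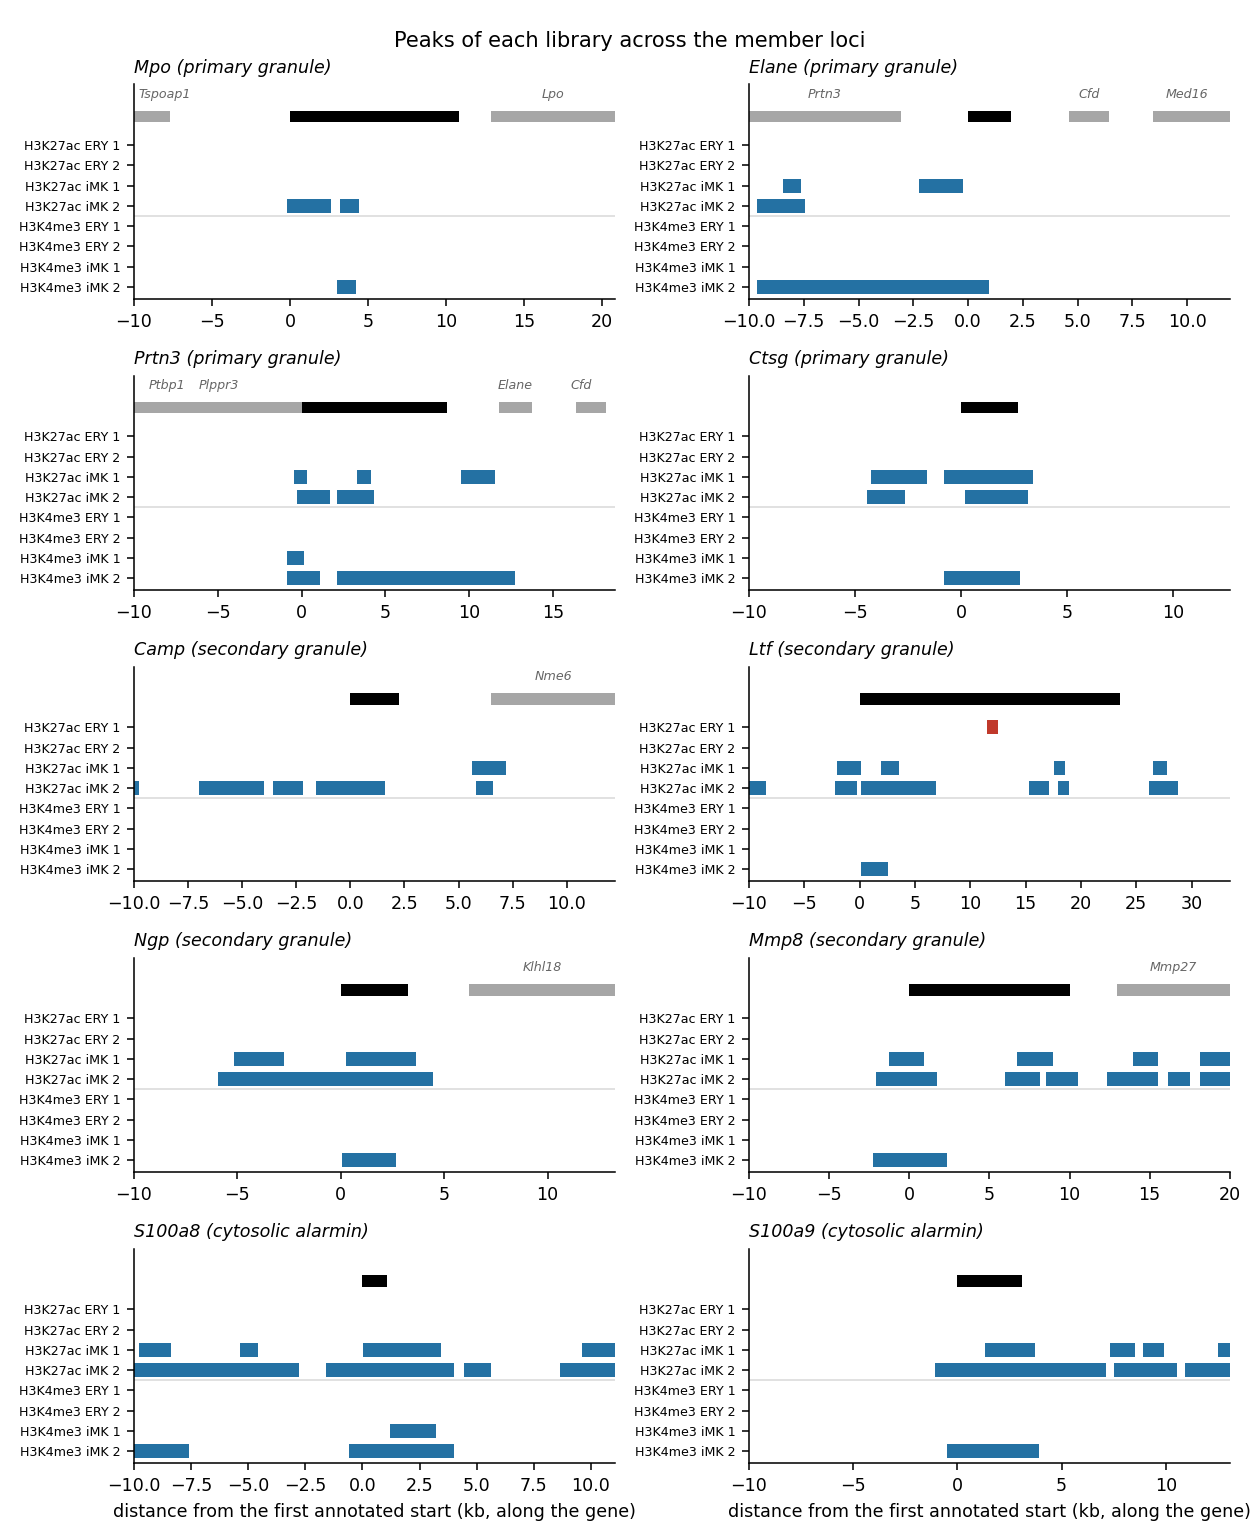
Peaks across the 10 loci, with distance from the first annotated start in kb on each horizontal axis, read along the gene. Rows are the 8 libraries (H3K27ac above the line, H3K4me3 below), bars are peaks (ERY in red, label iMK in blue), and the black and grey bars on top are the member and its protein-coding neighbours. The sole ERY peak is 1 kb inside Ltf, and the widest bars are the 10.4 kb H3K27ac peak at Ngp and the 10.6 kb H3K4me3 peak at Elane and Prtn3.

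Averaged over the libraries labelled iMK, the alarmin genes had the highest H3K27ac coverage of the 10, and for S100a9 this rested on replicate 2. S100a8 (ENSMUSG00000056054.9, chromosome 3, 90668978 to 90670035, plus strand) had 33.4% and 78.2% of its locus covered in replicates 1 and 2 labelled iMK and 0% in ERY. S100a9 (ENSMUSG00000056071.12, chromosome 3, 90692632 to 90695721, minus strand) had 22.4% and 57.9% against 0%. In replicate 1, S100a9 lay below Ctsg, Mmp8 and Ngp. The cell types did not overlap at either gene. ERY minus iMK was -55.8 points for S100a8 (SE 17.8, adjusted p = 0.0951) and -40.1 for S100a9 (SE 14.2, adjusted p = 0.114), and neither passed. Their mean coverage in the libraries labelled iMK stood at percentiles 99.9 and 99.3 of all protein-coding genes, against 69.6 to 96.2 for the primary and 95.01 to 98.97 for the secondary granule genes.

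S100a8 and S100a9 stand in opposite orientation with 22.6 kb between them, and the acetylation ran through that stretch. H3K27ac covered 40.7% and 81.4% of it in replicates 1 and 2 labelled iMK and 0% in ERY. In replicate 2 a peak of 7.2 kb in the middle (fold 8.41) lay in both loci, and peaks of 5.6 kb (fold 8.83) and 8.2 kb (fold 6.005) lay over S100a8 and S100a9. In replicate 1 the peaks over the genes were 3.4 kb (fold 5.18) and 2.4 kb (fold 2.90), and the latter began 1321 bases after the S100a9 start, outside its promoter window. Another block upstream of S100a8 reached 8.6 kb in replicate 2, where replicate 1 had peaks of 1.4 and 0.8 kb.

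Over the members together, 4 of 10 passed limma's test for H3K27ac as higher in the libraries labelled iMK, against 17.2% of the 14467 genes tested, and 0 as higher in ERY. The libraries labelled iMK both lay above both ERY libraries at 9 of 10 members, against 31.3% of the same genes. The median difference was -24.7 points over the members and 0.60 over all genes tested. Since the members were chosen with earlier results of these data known, these figures only describe them. The count of 4 depended on single libraries, and the 4 calls were lost with either ERY library left out. Both ERY values were 0% at every member but Ltf. With 1 library labelled iMK left out, the spread within groups at those genes came from these zeros alone. Counts from such fits are therefore not read as calls. With an ERY library left out, the differences of the 4 genes stayed at -11.4 to -34.8 points. The direction at a member was the same in each setting in which it had coverage. Mpo had none without iMK replicate 2, and Elane had none in the gene body alone. With 2 libraries against 2, the smallest two-sided p that an exact permutation test of 1 value allows is 0.333, from 6 arrangements.

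**Figure D3:**
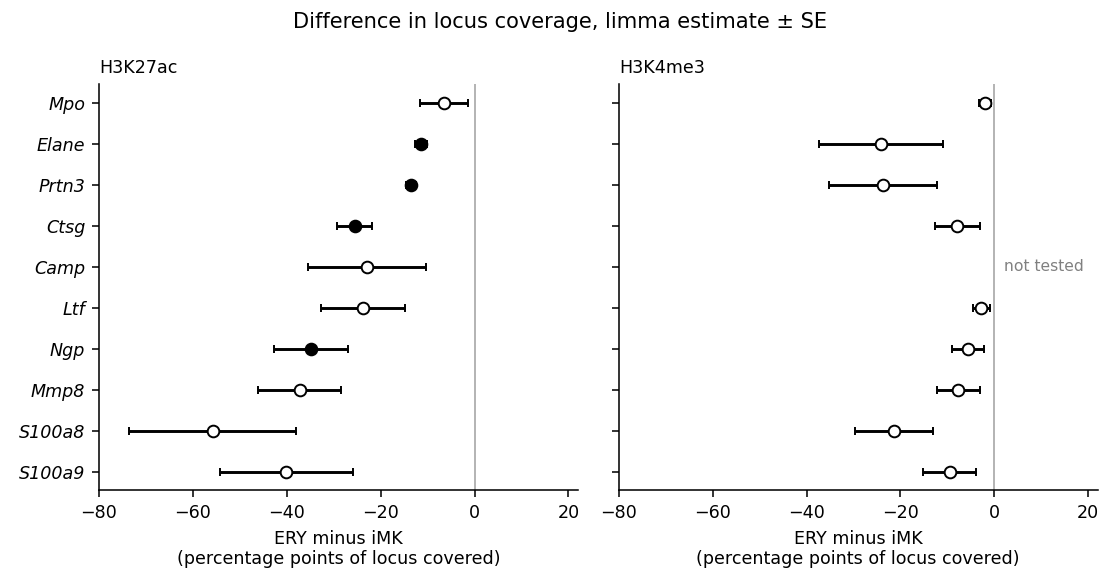
Difference in percent of the locus covered, ERY minus iMK, as limma's estimate with its SE, for H3K27ac (left) and H3K4me3 (right). Filled points passed the adjusted threshold and open points did not. The filled points are Elane, Prtn3, Ctsg and Ngp for H3K27ac, and Camp has no H3K4me3 value because no library had a peak there.

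Promoters were called where a peak shared at least 1 bp with any annotated start and 1 kb on each side. Prtn3, Ctsg, Ngp, Mmp8 and S100a8 had an H3K27ac call in both libraries labelled iMK and neither ERY library, 5 of 10 members against 8.56% of all protein-coding promoters. Mpo, Camp and S100a9 were called in replicate 2 labelled iMK alone, and Elane in replicate 1 alone. Ltf was called in both and also in ERY replicate 1, through an internal start inside its ERY peak. The count was 8 without iMK replicate 1 and 6 without iMK replicate 2 or without ERY replicate 1.

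H3K4me3 was rarer at these genes and rested mainly on 1 library. In replicate 2 labelled iMK, coverage was 48.2% at Elane, 43.9% at Prtn3, 15.9% at Ctsg and 3.89% at Mpo. It was 15.3% at Mmp8, 11.2% at Ngp, 5.52% at Ltf and 0% at Camp, and 33.4% at S100a8 and 19.1% at S100a9. In replicate 1 labelled iMK, the values were 3.48% at Prtn3, 9.50% at S100a8 and 0% at the other 8 members. All 10 were at 0% in both ERY libraries, so Prtn3 and S100a8 were the members at which the cell types did not overlap, 2 of 10 against 20.4% of the 13561 genes tested.

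By limma 0 of 9 tested members passed for H3K4me3, as did 0% of all genes tested, where 482 genes had an unadjusted p under 0.05. The lowest unadjusted p of a member was 0.0284, at S100a8 (-21.4 points, SE 8.25, adjusted p = 0.772). Elane (-24.1, SE 13.2) and Prtn3 (-23.7, SE 11.6) had larger differences with wider errors. Without iMK replicate 1 the differences ran from -3.89 points at Mpo to -48.25 at Elane. Without iMK replicate 2 they were -3.48 at Prtn3 and -9.50 at S100a8, and the other members had no peak. All members were at 0% in both ERY libraries, so the spread in such fits came from zeros alone. Counts from them are not read as calls. Promoter calls in both libraries labelled iMK and neither ERY library were found at Prtn3 and S100a8, 2 of 10 against 4.89% of promoters. This count was 8 without iMK replicate 1. The S100a8 peak of iMK replicate 1 began 1223 bases after the first start, past the gene end. It reached only the window of a later start, and the S100a8 call was lost with an overlap of 500 bp.

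The H3K4me3 peaks were mostly low. At Elane and Prtn3 a single peak of 10.6 kb (chromosome 10, 79876601 to 79887200) spanned most of the body of Prtn3 and the start of Elane, with a fold over control of 1.42, lower than all but 0.62% of peaks in its list. The Prtn3 promoter peak, which also covers the promoter of Plppr3, had folds of 5.37 and 3.49 in replicates 1 and 2, and was the sole promoter peak of this mark with a fold above 3. The remaining peaks of replicate 2 had folds of 1.74 to 2.91. The H3K4me3 peaks of replicate 2, 38.8 kb in all, lay under H3K27ac over 71.6% of their length in replicate 2 and 50.5% in replicate 1. The replicate numbers do not match libraries between the marks. H3K27ac of replicate 2 also covered more of the member loci, at a mean of 36.3% against 18.3% in replicate 1. In replicate 2 of both marks the overlap was 100% of the peak at Ngp, Ltf, S100a9 and both S100a8 peaks. It was 83.3% at Mpo, 82.6% at Mmp8, 72.2% at Ctsg and 70% at the Prtn3 promoter. It was 20.8% at the 10.6 kb peak. Against H3K27ac of replicate 1 it was 100% at Ctsg and 92.3% at Ngp, but 54.5% at S100a9, 47.8% at Mmp8, 25% at Ltf and 0% at Mpo.

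The Camp locus held H3K27ac in both libraries labelled iMK, in replicate 1 through the flanking peak alone, and no H3K4me3 in any library. Of the 12733 genes with H3K27ac in both, 668 (5.25%) had no H3K4me3 peak in their locus in any library.

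The primary and secondary granule genes were then compared within the libraries labelled iMK. Mean H3K27ac coverage of the 4 primary genes was 13.8% and 14.7% in replicates 1 and 2, and of the 4 secondary genes 18.0% and 42.0%. The difference, primary minus secondary, was -4.23 points in replicate 1 and -27.3 in replicate 2, so its size rested on replicate 2. Gene by gene, the sets overlapped in replicate 1, at 0% to 29.96% against 7.19% to 26.3%. In replicate 2 they did not overlap, at 10.01% to 21.2% against 36.2% to 48.2%. No test was made, since genes are not replicates, 2 of the primary genes share peaks and each cell type had 2 libraries.

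The sets also differed in how far the libraries labelled iMK lay apart. Replicate 2 minus replicate 1 was 19.8 points at Ngp, 21.98 at Mmp8, 22.4 at Ltf and 31.6 at Camp. It was 35.5 at S100a9 and 44.7 at S100a8, against -8.81 at Ctsg, -2.73 at Elane, 2.09 at Prtn3 and 12.97 at Mpo. Over the 12733 genes covered in both libraries, the median of this difference was 0.761 points and its 90th percentile 5.90. All 6 secondary and alarmin genes were thus above the 90th percentile of these genes. So was the value of Mpo, which had no peak in replicate 1 and is not one of them.

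For H3K4me3 the order rested on 1 peak. The primary genes had a mean coverage of 0.871% and 28.0% in replicates 1 and 2 labelled iMK and the secondary genes 0% and 8.003%, a difference of 0.871 and 19.97 points. In replicate 2 the sets overlapped, at 3.89% to 48.2% against 0% to 15.3%, and the 2 highest values, at Elane and Prtn3, came wholly and mostly from the same 10.6 kb peak. Without it, in an alternative chosen after seeing the data, Elane had 0% and Prtn3 6.97% in replicate 2. The primary mean there was then 6.68% and the difference -1.32 points, so its sign turned. Replicate 2 was the higher of the libraries labelled iMK at 97.9% of the 9429 genes covered in both, with a median difference of 4.37 points.

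**Figure D4:**
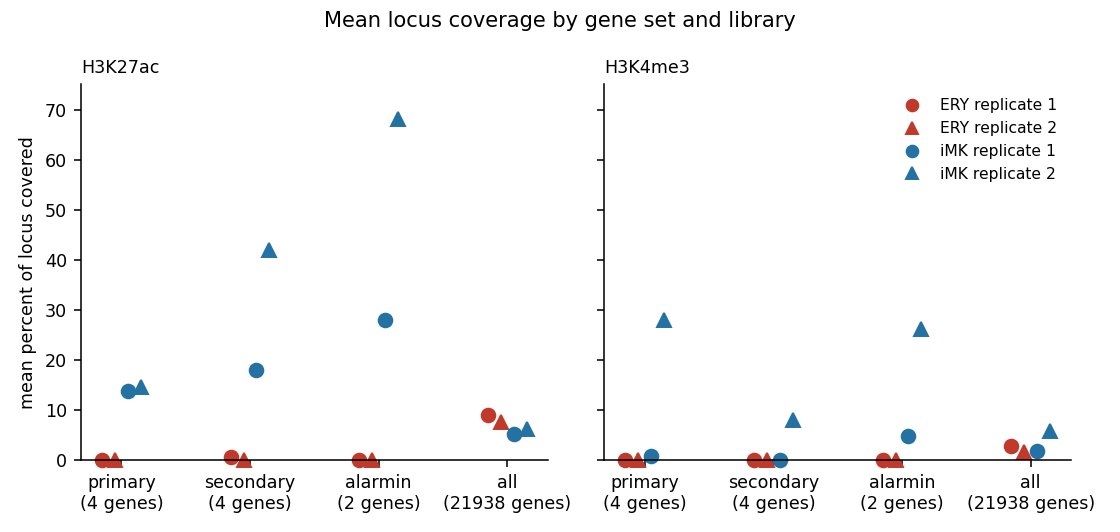
Mean percent of the locus covered (vertical axis) for the primary granule, secondary granule and alarmin genes and for all protein-coding genes, H3K27ac on the left and H3K4me3 on the right. Red points are ERY libraries and blue points those labelled iMK, with a circle for replicate 1 and a triangle for replicate 2. For H3K27ac the primary genes lie at 13.8% and 14.7% in the libraries labelled iMK, while the secondary genes lie at 18.0% and 42.0%.

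Other genes of the granule programme were counted from a list of known genes. For this list and those below, 17.2% of all genes tested passed for H3K27ac as higher in the libraries labelled iMK. Of 16 granule and secretory genes, 14 had H3K27ac coverage, 9 passed limma's test as higher in the libraries labelled iMK and 0 as higher in ERY, with a median difference of -18.9 points. Lyz2, the lysozyme gene, had 47.2% and 57.6% in replicates 1 and 2 labelled iMK against 0% in ERY (adjusted p = 0.00916). Hp, which encodes haptoglobin, had 44.4% and 47.7% against 6.13% and 6.96% (adjusted p = 0.0065). Chil3, Ctsc (the protease that activates the granule serine proteases), Cyba, Serpinb1a, Adam8, Itgb2 and Itgam also passed. Ctsc had 7.20% and 9.09% against 0% (adjusted p = 0.0119).

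Among those that did not pass, Lcn2, a secondary granule gene, had 18.6% and 35.6% in replicates 1 and 2 labelled iMK, whereas ERY had 31.3% and 11.9%, so that the cell types overlapped. Mmp9, of the gelatinase granules, had 0% and 36.5% against 0%. Cybb, an oxidase subunit of the granule membrane, had 2.76% and 12.4% against 0%. Bpi and Olfm4 had no peak of either mark in any library. For H3K4me3, 0 of 14 tested passed.

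Of 9 regulators of granulocyte genes, 5 passed for H3K27ac as higher in iMK and 0 as higher in ERY. Spi1, which encodes PU.1, had 32.6% and 29.98% and Cebpa 30.9% and 30.04%, with 0% in ERY (adjusted p = 0.0065 for both). Cebpb, Cebpd and Csf3r, the receptor gene for granulocyte colony-stimulating factor, also passed. Cebpe, whose product is needed for secondary granules, had 22.9% and 38.5% against 12.8% and 8.25% in ERY and did not pass (adjusted p = 0.0996). Gfi1 had 6.13% and 12.3% against 0% (adjusted p = 0.0683) and Runx1 18.9% and 25.01% against 24.9% and 19.7% (adjusted p = 0.941). For H3K4me3, 0 of 9 passed, and Cebpe had 0% and 33.9% against 0%.

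Among the 14 S100a genes, 7 passed for H3K27ac as higher in the libraries labelled iMK and 0 as higher in ERY. They were S100a2, S100a3, S100a4, S100a5, S100a6, S100a10 and S100a11, with 16.9% to 35.0% covered against 0%, and several of them lie side by side and share peaks. In replicate 2, S100a8 and S100a9 had wider coverage than any of these. In replicate 1 S100a8 (33.4%) lay below S100a4 (35.0%) and S100a5 (33.5%), and S100a9 (22.4%) lay above S100a3 (17.9%) alone. S100a7a, beside S100a8, had 8.92% and 40.03% against 0% and did not pass (adjusted p = 0.211). S100a1 and S100a13 had similar coverage in all 4 libraries, at 11.3% to 19.7%, and S100a14 and S100a16 had no peak.

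Markers of other blood cells were read beside these results. Of 10 neutrophil markers, 8 had H3K27ac in both libraries labelled iMK, against 12733 of 21938 protein-coding genes, and 4 passed as higher there. H3K27ac in both was also found for 9 of 10 monocyte and macrophage markers and 6 of 10 megakaryocyte markers. The percent covered, summed over the neutrophil list, was 140 and 292 points in replicates 1 and 2 labelled iMK, and 2.01 and 1.504 points in ERY. Ly6g and Itgam, whose products (Ly6g and CD11b) the sorts left out, had 5.02% and 14.2%, and 10.3% and 17.1%, against 0% in ERY. Stfa2l1 was at 0% in all libraries. Mmp9, Cd177, Itgam and Csf3r stand on this list and on one of those above.

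For monocyte and macrophage markers the sums were 71.2 and 83.7 points in ERY against 174 and 203 in replicates 1 and 2 labelled iMK, and 5 of 10 passed as higher in iMK. Replicate 2 labelled iMK thus had the higher sum on both lists. Of 6 basophil and mast cell markers, 5 were at 0% in all libraries, including Mcpt8 and Cpa3, and Hdc, also used in neutrophils, had 19.7% and 35.5%. Of 5 eosinophil markers 1 passed in each direction, and Prg2 and Il5ra were at 0% in both libraries labelled iMK. B cell markers had 0 of 3 tested that passed, and of the 4 T and NK cell markers found, Cd3d passed as higher in iMK. The part of other cell types in the granule gene peaks was not tested.

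**Figure D5:**
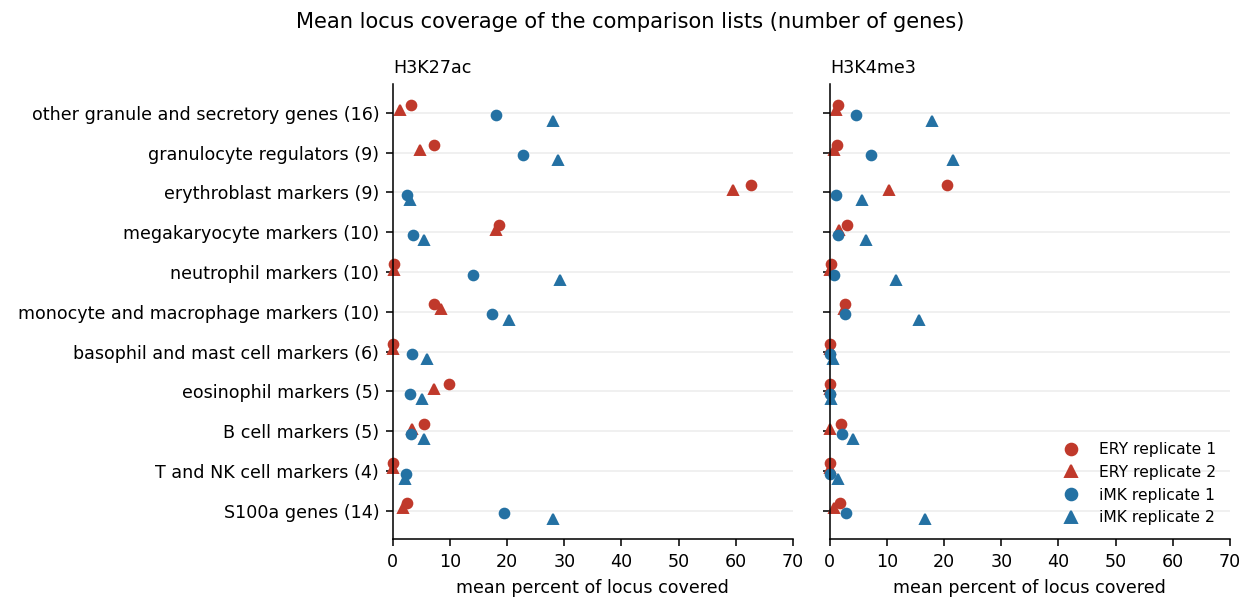
Mean percent of the locus covered (horizontal axes) for each comparison list, with the number of genes in parentheses, H3K27ac on the left and H3K4me3 on the right. Colours and symbols stand for single libraries: red is ERY, blue is the label iMK, a circle is replicate 1 and a triangle replicate 2. The neutrophil markers lie at 14.0% and 29.2% for H3K27ac in the libraries labelled iMK and near 0 in ERY, and the erythroblast markers at 62.6% and 59.5% in ERY.

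The genes nearest in profile to the secondary granule genes were ranked by Euclidean distance over the 8 libraries, in percentage points, from the median of the 4. Among 21869 genes more than 100 kb from any member, the nearest were Clec4a1 (distance 4.79), G0s2 (6.52), Clec5a (7.16), Fpr2 (7.81) and Hdc (7.89). Their H3K27ac coverage was 19.7% to 24.5% in replicate 1 labelled iMK and 35.5% to 47.9% in replicate 2, with 0% in ERY. Clec5a had H3K4me3 in replicate 1 (3.23%), and the other 4 only in replicate 2.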

How the data were processed

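ChIP-seq peak lists of 8 libraries were analysed, and the 10 input libraries were not used here. Bowtie 1.0.0, SICER 1.1 and mm10 are named, with no role given, in the processing notes of the submitters. The study's general pipeline mapped reads to mm10 and kept reads that map to several places, so peaks in duplicated genes may be shared. Edges are multiples of 200 bp. The peaks were called by the authors in each library separately. The deposited columns used were the fold over control, a ratio, and the q-value. Deposited p-values served only to rank peaks in the setting with the same number of peaks per list. Read depth is not in the lists, so no interval for counting error was given.

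Groups came from the submitters' labels. Coordinates are mm10, counted from 1. The annotation was GENCODE vM21, from which 21938 protein-coding genes were kept outside the mitochondrial chromosome. Coverage of each locus was compared as ERY minus iMK with limma 3.58.1 (R 4.3.3; moderated test with a trend) per mark, over all genes covered in at least 1 of 4 libraries; p-values were adjusted by Benjamini-Hochberg and called under 0.05. The test was tried on simulated data first, where it recovered most changed genes and made more false calls than the nominal rate. The alternatives were the gene body alone, a flank of 25 kb, the same number of peaks per list, log2(percent + 1), quantile normalization, no filter, promoter windows of 2.5 kb, an overlap of 500 bp and each library left out.

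Named genes were the members, list genes that passed with up to 3 that did not, the 5 nearest profiles and neighbours within 10 kb. Of the T and NK cell list, 4 of 5 names were found. The members, lists and motifs were chosen with earlier results of these data known. One gene of the erythroblast marker list is not reported here.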

Additional observations from a re-analysis of the deposited data

How the results depend on the processing

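All 4 H3K27ac calls among the members depended on having both ERY libraries. The number of members higher in the libraries labelled iMK was 4, and 0 to 10 with 1 library left out. The upper end came from a fit without iMK replicate 1. The spread there came from ERY zeros alone at every member but Ltf, so that count is not read as calls. The number was 8 on the log2(percent + 1) scale and 7 after quantile normalization. It was 3 in the gene body alone, with Prtn3 lost (adjusted p = 0.224), Elane without coverage and S100a8 gained. It was 3 with the same number of peaks per list, with Elane (0.124) and Prtn3 (0.116) lost and Mmp8 gained. It was 3 without the filter, with Ngp lost (0.0947). With a flank of 25 kb it was 4, with Prtn3 lost (0.115) and Mmp8 gained. Over all genes, 2490 were higher in iMK for H3K27ac (754 to 3248 with 1 library left out, the lowest without ERY replicate 2) and 3189 higher in ERY (917 to 3276, the lowest without iMK replicate 1). For H3K4me3 the member count was 0, with 1 after quantile normalization (S100a8) and 0 to 9 with 1 library left out. The upper end of that range also came from a fit without iMK replicate 1, with only zeros in ERY at the members. It is not read as calls either. The H3K4me3 counts over all genes were 0 in each direction. They became 177 higher in iMK and 113 higher in ERY after quantile normalization, and 2 and 1 without the filter. With 1 library left out they were 0 to 4099 higher in iMK and 0 to 20 higher in ERY. Ltf H3K4me3 turned to 1.36 points higher in ERY with a flank of 25 kb (adjusted p = 0.991), and the cause was not tested.

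Members with a promoter called in the libraries labelled iMK alone numbered 5 to 8 for H3K27ac and 2 to 8 for H3K4me3 with 1 library left out. For H3K4me3 the number was 1 with an overlap of 500 bp and 1 with the same number of peaks per list, where Prtn3 was left. The primary minus secondary difference was recomputed in the gene body, with a flank of 25 kb, with 1 library labelled iMK left out and, chosen after seeing the data, with the same number of peaks per list. It kept its sign in these, from -27.3 to -4.23 for H3K27ac and from 0.871 to 19.97 for H3K4me3. Without the 10.6 kb H3K4me3 peak shared by Elane and Prtn3, also chosen after seeing the data, the mean H3K4me3 difference turned from 10.4 to -0.225 points. A fit with 1 library in an arm takes that library to vary like the other arm. No paired analysis was possible because the labels number no replicates. With 2 libraries per group and no read depth, a locus without a peak cannot be called free of the mark.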
